A study of Homo sapiens with 12 samples.

Results

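Ribosome biogenesis and RNA exosome genes were examined in FaDU and JHU-029, both lines from squamous cell carcinomas of the head and neck (HNSCC). The set was chosen by gene symbol: UTP, RRP, NOL, NOP or EXOSC followed by a digit, plus 16 named nucleolar genes. In all, 62 of the 18404 genes measured belonged to it. Where a gene had several probe sets, the brightest on average was used. GNL3, NOP56 and UTP14C are not among the 62. The set was proposed with results of these arrays known, so the direction of its change as a group is not independent evidence.

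Expression was measured on 12 single-colour Affymetrix Human Gene ST arrays in 4 groups of 3: FaDU shTP63, FaDU shControl, JHU-029 shTP63 and JHU-029 shControl. All cells carried a lentiviral shRNA, either one directed against TP63, which encodes the squamous transcription factor p63, or a control, and RNA was taken at 72 hours. Whether the replicates were separate cultures is not stated, so the p-values reflect the spread between these arrays alone, which may be technical. The level of TP63 is not analysed here.

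Median linear intensity was 88.2 to 94.6 per array, and log2 profiles correlated at 0.993 to 0.997 within a group and at 0.94 to 0.951 between lines, across probe sets. The 8 squamous epithelial markers measured had group means of 8.62 to 13.25 in log2 intensity. In FaDU 6 of them were lower after knockdown by limma (75%, against 14.2% of all genes), with log2 changes of -1.41 for KRT5 and -1.07 for SFN. The medians of the fibroblast, immune and endothelial marker lists, 8, 7 and 7 genes, lay between 4.64 and 5.87 in every group. Single genes spread widely around them. Group means ran from 3.15 to 8.09 for fibroblast, 3.37 to 7.17 for immune and 3.95 to 9.69 for endothelial markers. Of these lists LYZ (0.76), CD14 (0.51) and CDH5 (1.00) rose in FaDU and 0 genes fell by limma. The rises were 28.6% of the immune, 14.3% of the endothelial and 0% of the fibroblast list, against 12.4% of all genes. CDH5 averaged 9.69 in FaDU shTP63 and 8.69 in FaDU shControl. The part of these marker changes in the results below was not tested.

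Ribosomes are assembled in the nucleolus. RNA polymerase I makes a long precursor RNA, small nucleolar ribonucleoproteins (snoRNPs) modify it, and a large complex called the small subunit processome cuts and folds the end that becomes the 40S subunit, while other factors build the 60S subunit. The RNA exosome, a ring of subunits with a cap and an attached nuclease, trims the precursor and degrades its discarded pieces. Growing cells, tumour cells among them, make many ribosomes.

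In FaDU most of these genes were lower in shTP63 cells than in shControl cells. Of 62 genes, 48 fell and 0 rose at an adjusted p under 0.05 by limma, whereas 14.2% of all genes fell and 12.4% rose (26.6% either way). The median log2 change was -0.30, against 0.02 over all genes, and single genes ranged from -0.82 for BYSL to 0.23 for NOL4L. In 54 of the 62 genes all 3 shTP63 arrays lay below all 3 shControl arrays (18% of all genes did so). NOP53 and NOL4L lay above in the same sense, which 18.1% of all genes did, and 6 genes overlapped. The changes were moderate in size: 167 of the 18404 genes had a lower log2 change than BYSL. In such bulk RNA a fall in every cell and a loss of cells that express a gene strongly cannot be told apart, and neither can less RNA per cell and fewer cells.

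The shift was visible array by array. The median over the 62 genes was 8.98, 9.06 and 9.14 in log2 intensity on the FaDU shTP63 arrays, against 9.41, 9.40 and 9.51 on the FaDU shControl arrays. It was 9.19, 9.21 and 9.19 on the JHU-029 shTP63 arrays, against 9.15, 9.23 and 9.24 on the JHU-029 shControl arrays. The FaDU groups did not overlap and the JHU-029 groups did.

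**Figure D1:**
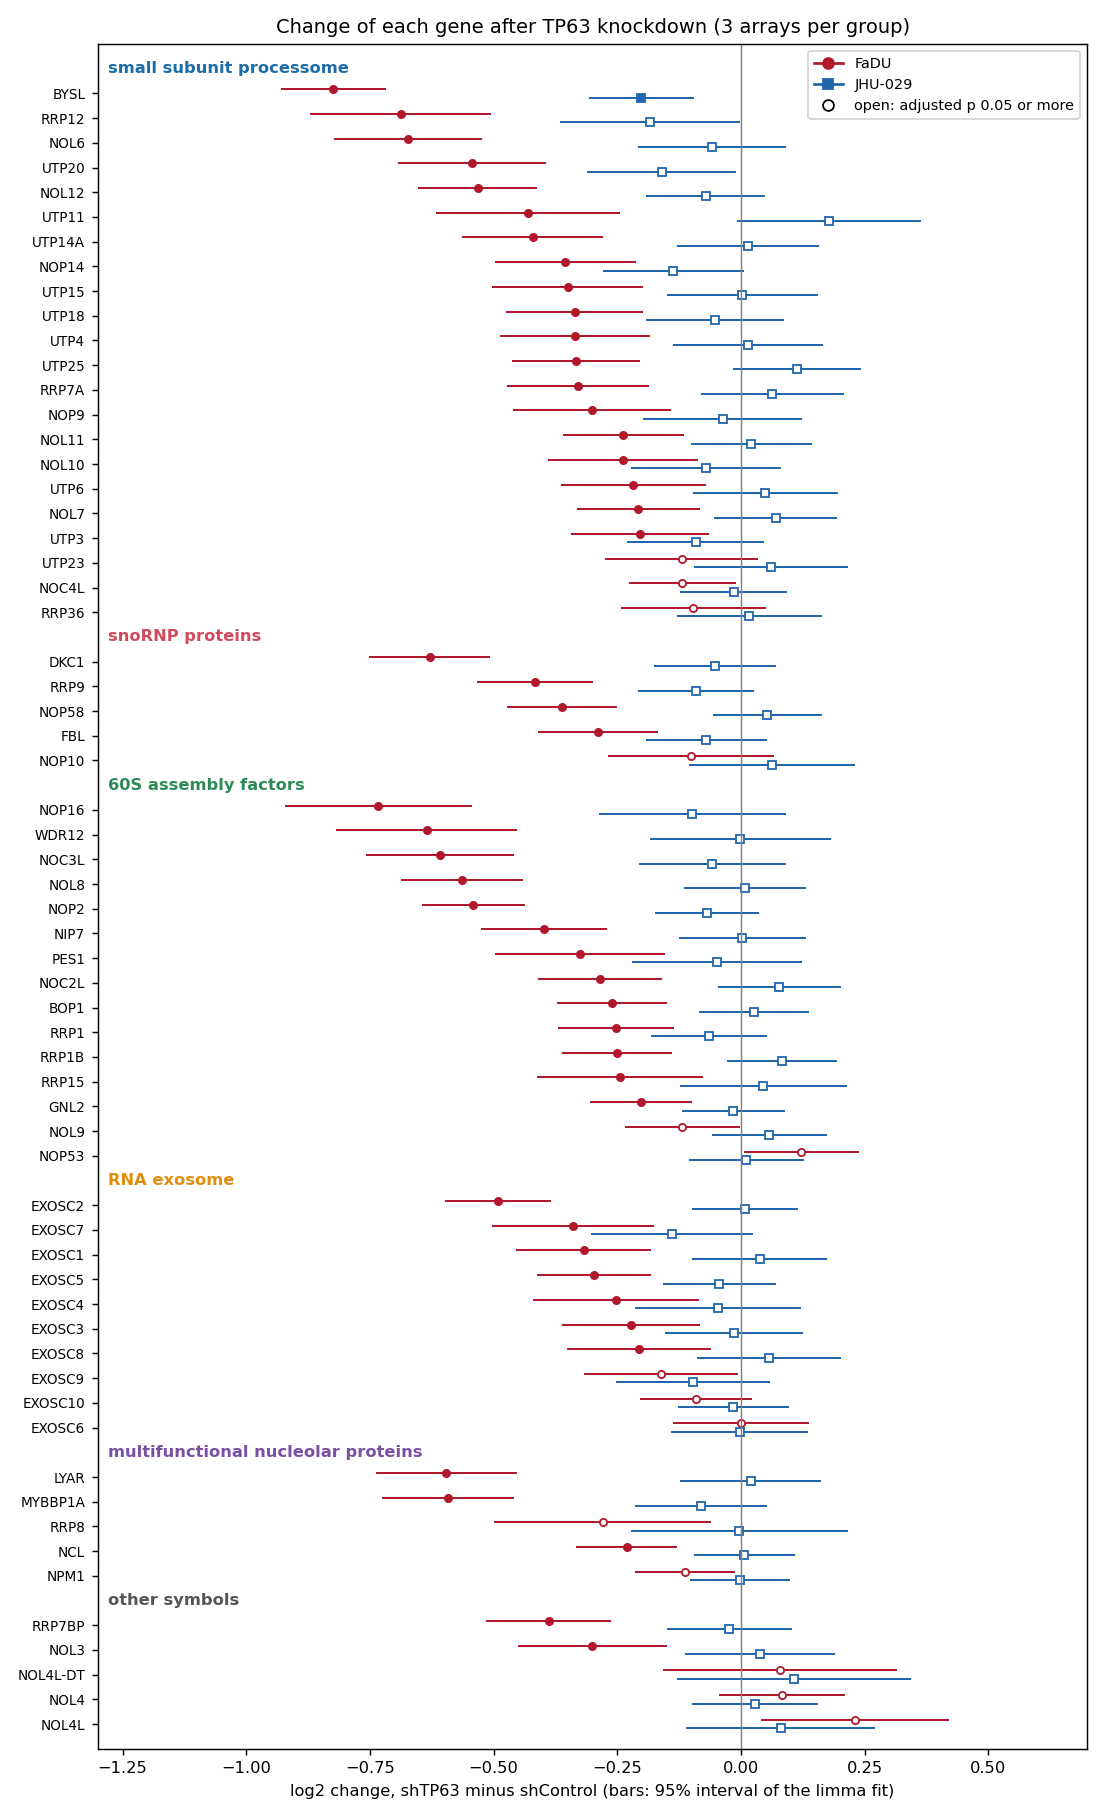
Log2 change (x axis, shTP63 minus shControl) of each of the 62 genes (rows, by role) in FaDU and JHU-029, with 95% intervals of the limma fit from 3 arrays per group. Filled symbols mark adjusted p under 0.05: 48 in FaDU, all lower, and BYSL in JHU-029.

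Promoter sequence is shown because genes that moved together can be compared for shared letters. RefSeq promoters (GRCh38.p14, 250 bases before to 50 after the start) were matched for 53 of the 62 genes. The E-box CACGTG, which reads the same on both strands and is recognised by MYC and other basic helix-loop-helix factors, was present in 19 of 53 (35.8%), against 8.88% of the promoters of 14230 genes tested and 7.43% of all 27305 promoters. It was present in 18 of the 40 matched genes that fell in FaDU (45.0%) and in 1 of the 13 that did not pass the test (7.69%), NOP10. The 13 include NOL4, NOL4L and NOL4L-DT and the 40 include NOL3, none of them ribosome factors. Of the 22 E-boxes found, 17 began within 40 bases of the start. E-box positions were not counted in the promoters of other genes, so this share has no comparison. The motifs were chosen with results known, a match is a description of letters, and no binding was measured.

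Windows of 26 bases follow for 7 genes with an E-box that fell in FaDU and for NOP10. NOP2 (-0.54) and UTP14A (-0.42) also carried one and fell by more than RRP9, but their E-boxes lie too near the ends of the 300 bases for a full window. The windows are printed with the E-box in capitals, on the gene's own strand. They lie at chr6:41921517-41921542 (BYSL, plus strand), chr9:33473896-33473921 (NOL6, minus), chr10:94362905-94362930 (NOC3L, minus), chr17:4555342-4555367 (MYBBP1A, minus), chr9:92325344-92325369 (NOL8, minus), chr12:101280085-101280110 (UTP20, plus), chr3:51941894-51941919 (RRP9, minus) and chr15:34343132-34343157 (NOP10, minus).
BYSL: cttcagtcccCACGTGcgatccttcc
NOL6: catttccgccCACGTGggaagctatg
NOC3L: gggacttcggCACGTGtgtcattccc
MYBBP1A: ggccggagcaCACGTGtttcgtgttt
NOL8: tccgttgggaCACGTGaccagaagtt
UTP20: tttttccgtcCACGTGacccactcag
RRP9: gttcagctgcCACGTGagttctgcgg
NOP10: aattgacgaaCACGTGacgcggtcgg

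The bases beside the E-box differed between genes: NOL8, UTP20 and NOP10 carried CACGTGAC, an extended form that overlaps the E-box and was found in 7.55% of the 53 promoters and in 3.48% of those of all genes tested. Other motifs were searched on both strands. CCGGAAG, an ETS-type motif, was in 28.3% of the 53 promoters and in 14.6% of those of genes tested. GGGCGG, the GC box, was in 67.9% and 60%, and the palindromic NRF1 motif in 7.55% and 1.79%. The 250 bases upstream of UTP20 (chr12:101279855-101280104, plus strand) are given as an example of a promoter whose E-box sits just before the start, again in capitals.
UTP20: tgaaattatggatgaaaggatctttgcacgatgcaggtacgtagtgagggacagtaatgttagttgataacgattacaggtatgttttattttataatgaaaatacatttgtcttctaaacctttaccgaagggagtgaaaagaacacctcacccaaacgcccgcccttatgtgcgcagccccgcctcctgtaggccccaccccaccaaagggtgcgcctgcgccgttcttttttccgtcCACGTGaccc

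Small subunit processome and 40S factors held the steepest fall. Of 22 genes, 19 fell in FaDU with a median log2 change of -0.33 over all 22. BYSL, which acts late in 40S maturation, had 8.49, 8.57 and 8.54 in log2 intensity on the FaDU shTP63 arrays, against 9.39, 9.37 and 9.32 on the FaDU shControl arrays. The groups lay far apart relative to their spread, and BYSL stood at 56.5% of its control level (log2 change -0.82, SE 0.05, limma adjusted p = 1.98e-07). RRP12, a factor in 40S export, had 8.49, 8.84 and 8.85 in FaDU shTP63, against 9.38, 9.45 and 9.41 in FaDU shControl. One RRP12 knockdown array was lower than the other two, and all were below every control (-0.69, SE 0.08, limma adjusted p = 5.93e-05). NOL6, a processome protein, had 8.0, 8.15 and 8.08 in FaDU shTP63, against 8.87, 8.68 and 8.71 in FaDU shControl, again without overlap (-0.67, SE 0.07, limma adjusted p = 1.49e-05).

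Further falls in this group were those of the scaffold protein UTP20 (-0.54), the RNA-binding protein NOL12 (-0.53), UTP11 (-0.43), the helicase activator UTP14A (-0.42) and NOP14 (-0.36). UTP15, UTP18, UTP4, UTP25, RRP7A and NOP9 fell, with log2 changes of -0.35 to -0.30, as did NOL11 (-0.24). NOL10 (-0.24), UTP6 (-0.22), NOL7 (-0.21) and UTP3 (-0.20) passed the test narrowly. The NOL7 call was lost without FaDU shTP63 replicate 3, and the NOL10 call without FaDU shControl replicate 1 or FaDU shTP63 replicate 1 or 2. UTP3 and UTP6 were lost without replicate 1 or 3 of either FaDU group. Their limma adjusted p reached at most 0.0818 for NOL7, 0.167 for NOL10, 0.108 for UTP3 and 0.0893 for UTP6 over the alternatives tried. UTP23 (-0.12), NOC4L (-0.12) and RRP36 (-0.10) did not pass. RRP36, a small subunit factor, had 8.04, 8.09 and 8.04 in FaDU shTP63, against 8.24, 8.03 and 8.19 in FaDU shControl, with overlap.

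**Figure D2:**
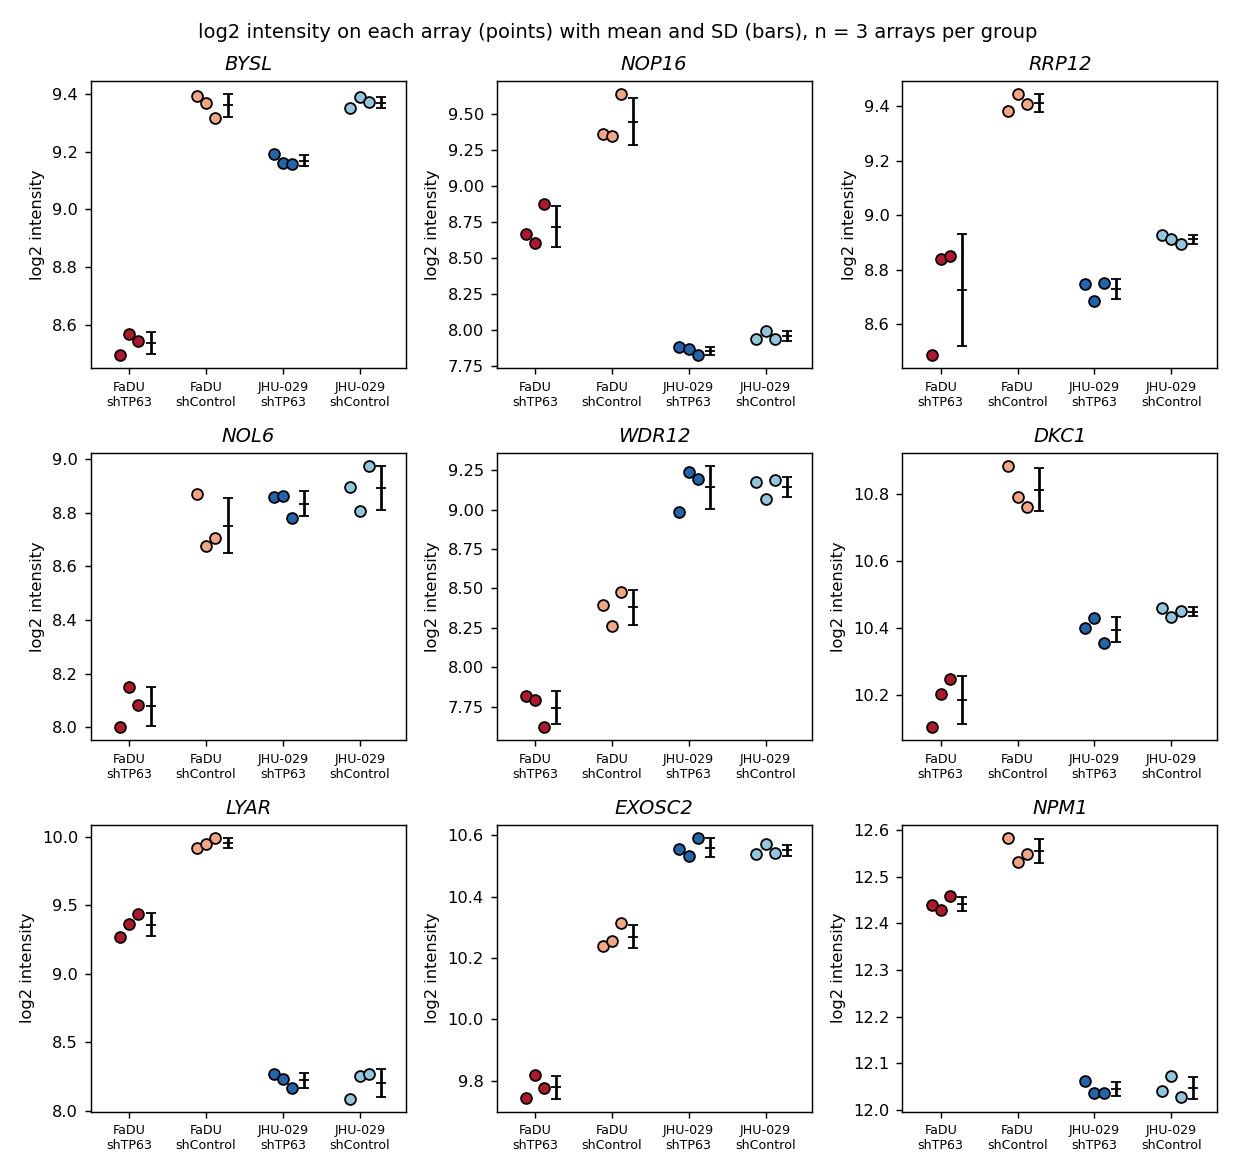
Log2 intensity (y axis, not starting at 0) of 9 genes on each of the 12 arrays, grouped by line and shRNA, with mean and SD of 3 arrays. FaDU shTP63 points lie below FaDU shControl points in all 9 genes, from a change of -0.82 in BYSL to -0.11 in NPM1, which did not pass the test.

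Genes for snoRNP proteins were lower too, 4 of 5 in FaDU with a median of -0.36. DKC1, the pseudouridine synthase of the box H/ACA class and also a telomerase component, had 10.10, 10.20 and 10.25 in FaDU shTP63, against 10.89, 10.79 and 10.76 in FaDU shControl. Its groups were apart (-0.63, SE 0.06, limma adjusted p = 5.13e-06). RRP9, which binds the U3 RNA, had 7.72, 7.64 and 7.54 in FaDU shTP63, against 8.05, 8.04 and 8.05 in FaDU shControl (-0.42, SE 0.05, limma adjusted p = 9.35e-05). The box C/D core protein NOP58 (-0.36) and the methyltransferase FBL (-0.29) fell less steeply. FBL had 10.45, 10.60 and 10.58 in FaDU shTP63, against 10.81, 10.82 and 10.87 in FaDU shControl, and the groups did not overlap. NOP10, a small partner of DKC1, had a log2 change of -0.10 (limma adjusted p = 0.382). A probe set shared by SNORD56 and NOP56 fell by 0.54 (limma adjusted p = 2.66e-05), and cannot be assigned to either gene.

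Among 60S assembly factors 13 of 15 fell in FaDU, with a median of -0.28. NOP16, a nucleolar 60S factor, had 8.67, 8.60 and 8.88 in FaDU shTP63, against 9.36, 9.35 and 9.64 in FaDU shControl (-0.73, SE 0.09, limma adjusted p = 4.71e-05). WDR12, which forms the PeBoW complex with PES1 and BOP1, had 7.82, 7.79 and 7.62 in FaDU shTP63, against 8.40, 8.26 and 8.48 in FaDU shControl (-0.64, SE 0.08, limma adjusted p = 0.000114). In both genes every knockdown array was below every control array. The partners PES1 (-0.32) and BOP1 (-0.26) fell by smaller amounts, and a second BOP1 probe set fell by 0.45.

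NOC3L (-0.61) and NOC2L (-0.28), 60S factors known from their yeast counterparts, both fell, as did NOL8 (-0.56), NIP7 (-0.40), RRP1 (-0.25) and the GTPase GNL2 (-0.20). NOP2, an rRNA cytosine methyltransferase, had tight values of 10.38, 10.40 and 10.37 in FaDU shTP63, against 10.92, 10.91 and 10.93 in FaDU shControl (-0.54). RRP1B had 9.75, 9.69 and 9.75 in FaDU shTP63, against 9.97, 10.04 and 9.94 in FaDU shControl (-0.25, limma adjusted p = 0.00232). Neither gene's groups overlapped. RRP15 (-0.24, limma adjusted p = 0.0318) was lost without FaDU shControl replicate 1 or 3 or any 1 FaDU shTP63 array, with an adjusted p of up to 0.125. NOL9, a polynucleotide kinase, had 8.92, 8.96 and 9.05 in FaDU shTP63, against 9.12, 9.11 and 9.06 in FaDU shControl, and did not pass (-0.12, limma adjusted p = 0.122). NOP53, which links the pre-60S particle to the exosome, was 0.12 higher and did not pass either.

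The RNA exosome showed smaller changes. Of its 10 subunit genes 7 fell in FaDU, with a median of -0.24. The cap subunit EXOSC2 had 9.74, 9.82 and 9.78 in FaDU shTP63, against 10.24, 10.26 and 10.31 in FaDU shControl (-0.49, SE 0.05, limma adjusted p = 1.21e-05). The ring subunit EXOSC7 had 8.13, 8.31 and 8.39 in FaDU shTP63, against 8.66, 8.60 and 8.59 in FaDU shControl (-0.34, limma adjusted p = 0.00417). Both pairs of groups were apart. The cap subunit EXOSC1 (-0.32) and the ring subunit EXOSC5 (-0.30) fell to a similar extent.

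The cap subunit EXOSC3 (-0.22) and the ring subunits EXOSC4 (-0.25) and EXOSC8 (-0.21) passed narrowly. EXOSC3 was lost without FaDU shControl replicate 1 or 3 or FaDU shTP63 replicate 2, with an adjusted p of up to 0.0889. EXOSC4 was lost without FaDU shControl replicate 3 or FaDU shTP63 replicate 1 or 3, up to 0.108. EXOSC8 was lost without JHU-029 shControl replicate 2, FaDU shControl replicate 1 or 3 or FaDU shTP63 replicate 1 or 2, up to 0.125. EXOSC9 had 9.23, 9.35 and 9.47 in FaDU shTP63, against 9.49, 9.5 and 9.55 in FaDU shControl, and did not pass (-0.16, limma adjusted p = 0.118), though it did without FaDU shTP63 replicate 3 (0.0436). The nuclease EXOSC10 (-0.09) and the ring subunit EXOSC6 (-0.00) did not pass.

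Of 5 nucleolar proteins with several functions 3 fell in FaDU. LYAR, a zinc finger protein of rRNA transcription and processing, had 9.27, 9.37 and 9.44 in FaDU shTP63, against 9.92, 9.95 and 9.99 in FaDU shControl (-0.60, SE 0.06, limma adjusted p = 2.63e-05). MYBBP1A, a nucleolar regulator of transcription, had 8.65, 8.86 and 8.85 in FaDU shTP63, against 9.41, 9.33 and 9.38 in FaDU shControl (-0.59, SE 0.06, limma adjusted p = 1.62e-05). Neither overlapped. Nucleolin, NCL, fell by 0.23. The rRNA methyltransferase RRP8 was -0.28 with a wide interval (limma adjusted p = 0.0574), and passed without FaDU shTP63 replicate 3. Nucleophosmin, NPM1, was -0.11 (limma adjusted p = 0.0901), and passed with only genes above the median intensity and with a trend in the variance prior. Another, dimmer NPM1 probe set fell by 0.24 (limma adjusted p = 0.00368). The dimmest, with a mean log2 intensity of 5.22, was 0.18 higher (SE 0.15) without passing. The call thus differed between the probe sets.

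The symbol rule also took in 5 genes that are not ribosome factors. RRP7BP, a pseudogene nearly identical to RRP7A, had 10.48, 10.58 and 10.52 in FaDU shTP63, against 10.88, 10.93 and 10.94 in FaDU shControl (-0.39), and its signal cannot be told apart from that of RRP7A. NOL3, an apoptosis repressor, had 8.5, 8.55 and 8.38 in FaDU shTP63, against 8.63, 8.88 and 8.82 in FaDU shControl (-0.30, limma adjusted p = 0.00563). Both were lower on every knockdown array. NOL4L had 6.43, 6.40 and 6.40 in FaDU shTP63, against 6.28, 5.96 and 6.30 in FaDU shControl (0.23, limma adjusted p = 0.07), and passed without FaDU shControl replicate 3 (0.0404). The long noncoding NOL4L-DT had 5.57, 5.56 and 5.64 in FaDU shTP63, against 5.29, 5.45 and 5.79 in FaDU shControl, with overlap, and NOL4 was 0.08 higher. These 3 were dim.

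In JHU-029 the shRNA against TP63 was followed by small changes in these genes. How far TP63 itself fell in each line is not analysed here, and its part in the difference between the lines was not tested. By limma 1 of 62 fell and 0 rose, whereas 1.35% of all genes fell and 1.8% rose (3.15% either way); 3 of the 62 had an unadjusted p under 0.05, as did 2727 of the 18404 genes. The median log2 change was -0.00, and the range ran from -0.20 to 0.18. Groups were apart and lower for 15 of the 62 genes and apart and higher for 5. Over all 18404 genes these counts were 2151 (11.7%) and 2439 (13.3%). For 59 of the 62 the 95% interval held 0, and for 58 it lay wholly above -0.30, the median change in FaDU.

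BYSL was the gene that fell in JHU-029. It had 9.19, 9.16 and 9.16 in JHU-029 shTP63, against 9.35, 9.39 and 9.37 in JHU-029 shControl (-0.20, SE 0.05, limma adjusted p = 0.0411). The groups were apart, but the call was lost without any 1 of the 6 JHU-029 arrays or without FaDU shTP63 replicate 3, with an adjusted p of up to 0.208 over the alternatives. BYSL was the 1 gene of the 62 that fell in both lines, which 0.853% of all genes did. RRP12 had 8.75, 8.68 and 8.75 in JHU-029 shTP63, against 8.93, 8.91 and 8.89 in JHU-029 shControl (-0.18, limma adjusted p = 0.325), and UTP11 differed by 0.18 (limma adjusted p = 0.356).

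Several genes with clear falls in FaDU changed little in JHU-029. NOP16 had 7.88, 7.87 and 7.82 in JHU-029 shTP63, against 7.94, 7.99 and 7.93 in JHU-029 shControl (-0.10). WDR12 had 8.99, 9.24 and 9.20 in JHU-029 shTP63, against 9.17, 9.07 and 9.19 in JHU-029 shControl (-0.00). LYAR had 8.27, 8.23 and 8.16 in JHU-029 shTP63, against 8.09, 8.25 and 8.27 in JHU-029 shControl (0.02). The WDR12 and LYAR groups overlapped, and those of NOP16 were apart by a small step. EXOSC7 (-0.14), EXOSC9 (-0.10), RRP1B (0.08) and MYBBP1A (-0.08) did not pass, and EXOSC2 was at 0.01.

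The difference between the lines was tested directly as the FaDU effect minus the JHU-029 effect. It passed for 33 of 62 genes by limma, all with the lower effect in FaDU and 0 the other way, whereas 8.25% of all genes passed in that direction and 4.97% in the other (13.2% either way). The effects compared share no arrays. Depth of knockdown was not compared between the lines, and its part in these differences was not tested. The median difference was -0.28, and the FaDU change was below the JHU-029 change in 58 of 62 genes. The largest differences were those of NOP16 (-0.63, SE 0.12, limma adjusted p = 0.00459), WDR12 (-0.63, SE 0.12, 0.00389), BYSL (-0.62, SE 0.07, 0.000124), LYAR (-0.62, SE 0.09, 0.000992) and NOL6 (-0.61, SE 0.10, 0.00141). By role the difference passed for 13 of 22 small subunit genes, 3 of 5 snoRNP genes, 9 of 15 60S genes, 3 of 10 exosome genes (EXOSC1, EXOSC2 and EXOSC5) and 3 of 5 multifunctional genes. EXOSC1 was lost without JHU-029 shControl replicate 3, and EXOSC5 without any 1 array except FaDU shControl replicate 2 or FaDU shTP63 replicate 2. The count was 24 without JHU-029 shControl replicate 3 and 36 without FaDU shControl replicate 2. It was 25 without both FaDU shControl arrays whose titles carry the word new, where the count of falls in FaDU was 40 with a median of -0.34. That fit has 1 FaDU shControl array, which is assumed to vary like the arrays of the other groups.

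**Figure D3:**
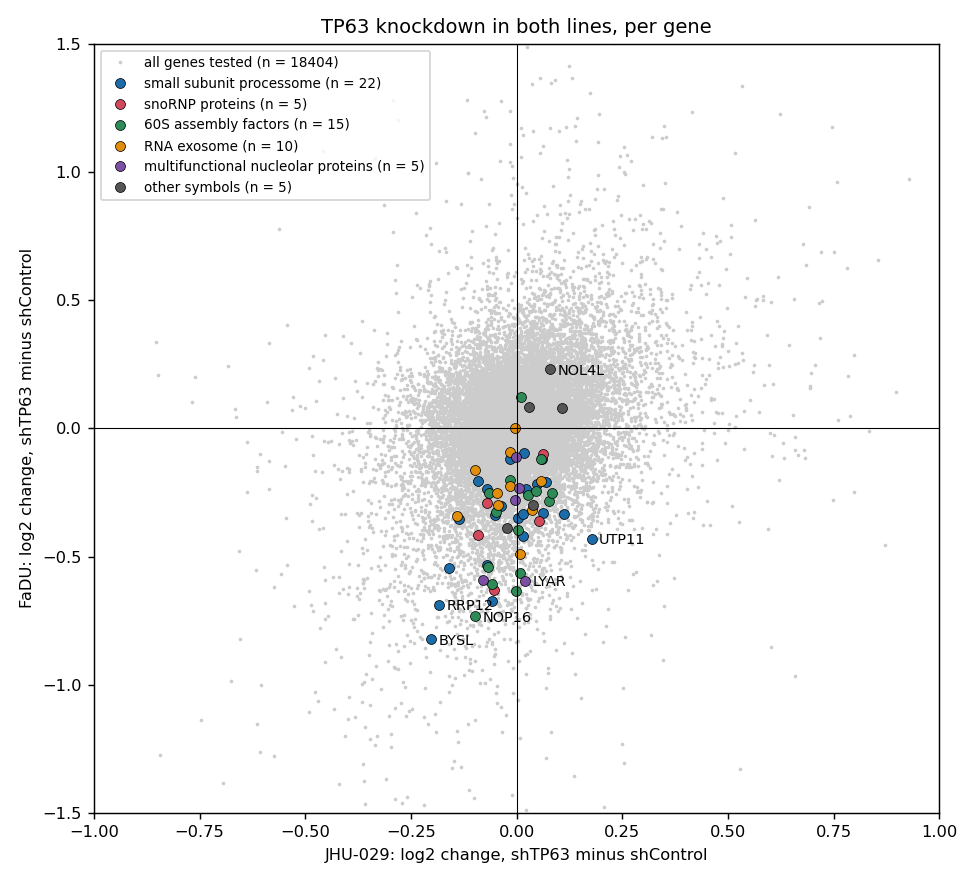
Log2 change after TP63 knockdown in JHU-029 (x axis) and in FaDU (y axis) for the 62 genes, coloured by role, over all 18404 genes in grey (36 lie outside the drawn range). The coloured points run from 0.23 down to -0.82 in FaDU, most of them below 0, and stay between -0.20 and 0.18 in JHU-029.

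Under the control shRNA the lines already differed in these genes, in both directions. In FaDU shControl against JHU-029 shControl 32 of 62 genes were higher and 19 lower by limma (51.6% and 30.6%). Of all genes 33.4% were higher and 30.4% lower (63.8% either way). Groups were apart for 36 of the 62 genes in the higher and 20 in the lower direction. Over all 18404 genes these counts were 6743 (36.6%) and 5959 (32.4%). The median difference was 0.19, against 0.05 over all genes, with a range from -1.69 to 1.75. The knockdown in FaDU and this comparison share the FaDU shControl arrays.

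Genes higher in FaDU controls included LYAR, with 9.92, 9.95 and 9.99 in FaDU shControl, against 8.09, 8.25 and 8.27 in JHU-029 shControl (1.75, limma adjusted p = 1.06e-10). NOP2 had 10.92, 10.91 and 10.93 in FaDU shControl, against 9.41, 9.45 and 9.38 in JHU-029 shControl (1.51). NOP16 differed by 1.49, EXOSC7 by 1.14 and NOC4L by 1.13. NOC4L, a small subunit factor, had 9.57, 9.48 and 9.59 in FaDU shControl, against 8.42, 8.43 and 8.41 in JHU-029 shControl. These 5 were higher on every FaDU control array.

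EXOSC4 was the gene furthest in the other direction, with 7.94, 7.90 and 8.12 in FaDU shControl, against 9.66, 9.66 and 9.71 in JHU-029 shControl (-1.69, limma adjusted p = 6.25e-10). NOL4L (-1.06), NOL9 (-0.77), WDR12 (-0.76) and RRP36 (-0.66) were also lower in FaDU. NOL9 had 9.12, 9.11 and 9.06 in FaDU shControl, against 9.89, 9.81 and 9.89 in JHU-029 shControl. RRP36 had 8.24, 8.03 and 8.19 in FaDU shControl, against 8.86, 8.86 and 8.71 in JHU-029 shControl. The exosome thus had subunits at both ends of the range. BYSL, which fell most on knockdown, did not pass between the controls (-0.01, limma adjusted p = 0.87).

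**Figure D4:**
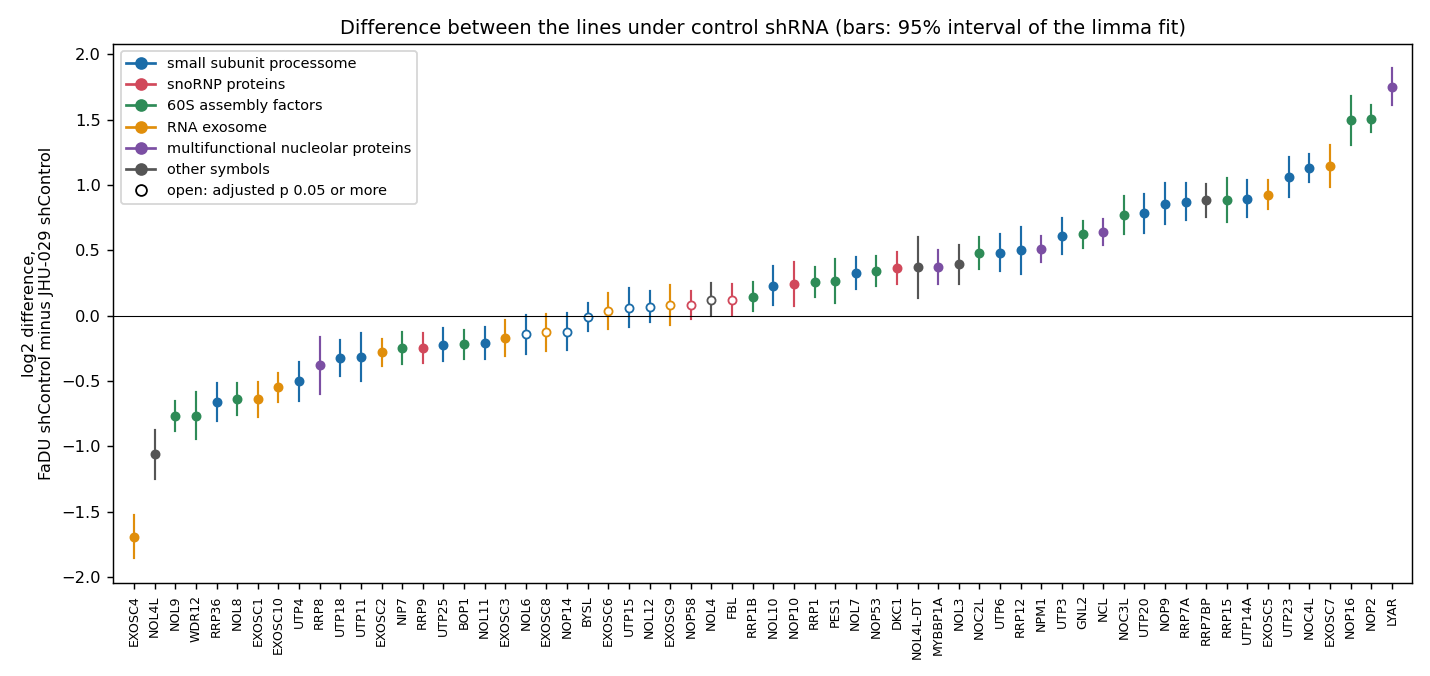
Log2 difference between FaDU shControl and JHU-029 shControl (y axis) for the 62 genes (x axis, in order of the difference, coloured by role), with 95% intervals of the limma fit from 3 arrays per group. Values run from -1.69 for EXOSC4 to 1.75 for LYAR, and open symbols mark the 11 genes that did not pass the test.

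Other genes of the same pathway, outside the symbol rule, were read from lists drawn up with earlier results known. Of 35 other small subunit processome and 40S factors 26 fell (74.3%, against 14.2% of all genes) and 0 rose in FaDU, with a median of -0.30. The endonuclease NOB1 averaged 10.04 ± 0.02 in FaDU shTP63 and 10.88 ± 0.10 in FaDU shControl (SD, n = 3 arrays each; log2 change -0.85, limma adjusted p = 7.09e-07), and the methyltransferase EMG1 fell by 0.69. Of 35 genes on a list of other 60S factors 23 fell (65.7%) and 0 rose, with a median of -0.27, led by RRS1 (-0.95) and MAK16 (-0.80). That list as drawn up also named NAF1, NHP2 and GAR1, which belong to box H/ACA snoRNPs. In JHU-029, 1 gene of the first list (NOB1, -0.30, limma adjusted p = 0.0145) and 0 of the second passed. NOB1 there was lost without JHU-029 shControl replicate 1 or 2 or JHU-029 shTP63 replicate 2, with an adjusted p of up to 0.103. The difference between the lines passed for 16 and 17 genes of these lists.

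RNA polymerase I machinery showed the lowest median of the pathway lists, -0.49 in FaDU. There 11 of 17 genes fell (64.7%, against 14.2% of all genes) and 0 rose. TCOF1, the nucleolar protein treacle, had 8.85, 8.89 and 8.83 in FaDU shTP63, against 9.81, 9.79 and 9.84 in FaDU shControl (-0.95, limma adjusted p = 1.63e-07). TAF1A, a subunit of the promoter selectivity factor, had 6.10, 6.30 and 6.16 in FaDU shTP63, against 7.15, 7.13 and 6.99 in FaDU shControl (-0.91, limma adjusted p = 9.64e-07). Neither overlapped. In JHU-029 0 of the 17 passed by limma, against 3.15% of all genes. TCOF1 passed there as lower with only genes above the median intensity and with a trend in the variance prior. JHU-029 groups were apart and lower for 6 of the 17 and apart and higher for 0, against 11.7% and 13.3% of all genes. An unadjusted p under 0.05 was seen for 2 of the 17 and for 2727 of the 18404 genes.

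Exosome nucleases and cofactors did not move one way. Of 13 genes 5 fell and 2 rose in FaDU (38.5% and 15.4%, against 14.2% and 12.4% of all genes), with a median of -0.17. The poly(A) polymerase TENT4A (-0.58) and the cytoplasmic helicase SKIC2 (-0.41) fell, whereas the cofactor C1D (0.45) and the ribosome rescue factor HBS1L (0.23) rose. HBS1L was lost without FaDU shControl replicate 2 or FaDU shTP63 replicate 1 or 2, with an adjusted p of up to 0.263. In JHU-029 TENT4A (-0.20) and C1D (0.32) passed in the same directions, and both calls were lost when JHU-029 arrays were left out one at a time, TENT4A for each of the 6 and C1D for each except shTP63 replicate 1, with an adjusted p of up to 0.183 and 0.135 over the alternatives.

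Cytosolic ribosomal proteins, the structural parts of the ribosome, had shares of falls near or below those of all genes. Of 63 genes 7 fell and 1 rose in FaDU (11.1% and 1.59%, against 14.2% and 12.4% of all genes), with a median of 0.00. RPL32 (-0.50) and RPL17 (-0.39) fell; RPL17 was lost without FaDU shControl replicate 3, with an adjusted p of up to 0.113. RPLP2 (0.16, limma adjusted p = 0.0444) passed by little and was lost in 16 of the alternative fits. In JHU-029 RPS27 rose by 0.61 and no other gene of the list passed, so 1.59% rose, against 1.8% of all genes.

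Of 11 genes of the MYC network, which includes factors that bind the E-box, 2 fell and 1 rose in FaDU (18.2% and 9.09%, shares close to the 14.2% and 12.4% of all genes). MYC had 10.83, 10.80 and 10.73 in FaDU shTP63, against 11.23, 11.14 and 11.13 in FaDU shControl (-0.38, SE 0.06, limma adjusted p = 0.000261). It had 10.35, 10.44 and 10.44 in JHU-029 shTP63, against 10.74, 10.64 and 10.64 in JHU-029 shControl (-0.26, SE 0.06, limma adjusted p = 0.0261). Knockdown arrays were below control arrays in both lines, while the line difference for MYC did not pass (-0.12, limma adjusted p = 0.386). MXD1, a repressor that competes with MYC for its partner MAX, rose by 0.72 in FaDU and by 0.32 in JHU-029 (limma adjusted p = 0.0118), with a difference between the lines of 0.40 (limma adjusted p = 0.00801). That difference was lost with the replicate number as a fixed block and without both FaDU shControl arrays titled new, at adjusted p of 0.0517 and 0.0634. In JHU-029 the MYC call was lost without any 1 of the 6 arrays and the MXD1 call without replicate 2 or 3 of either group, with an adjusted p of up to 0.128 and 0.097 over the alternatives. MLX fell by 0.40 in FaDU.

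**Figure D5:**
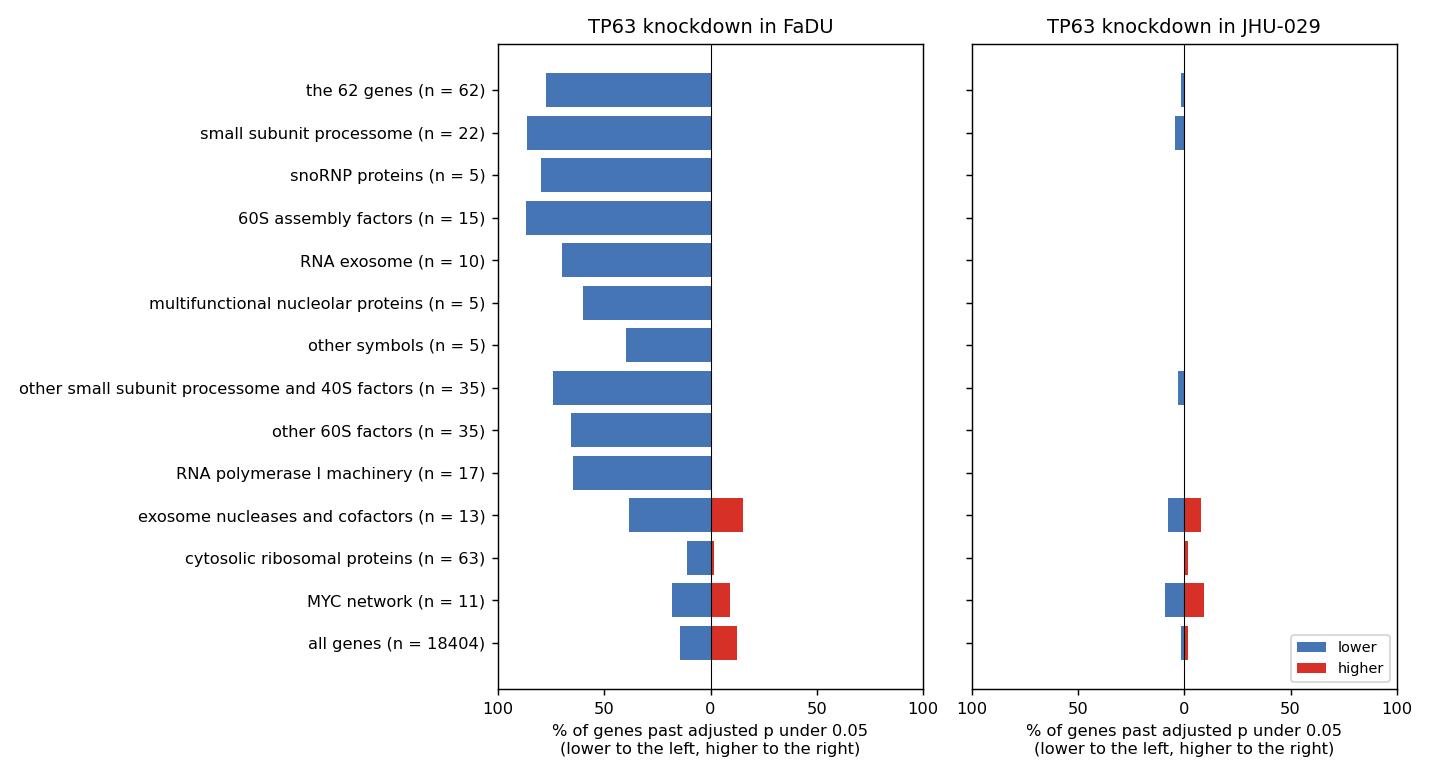
Percent of genes in each role group, in each list and among all genes (rows, n in the labels) that were lower (left) or higher (right) at limma adjusted p under 0.05 after TP63 knockdown in FaDU and JHU-029. In FaDU 77.4% of the 62 genes were lower, against 14.2% of all genes, while 11.1% of ribosomal protein genes were lower.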

How the data were processed

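RNA of 2 cell lines with 2 shRNAs was measured on 12 arrays, 3 per group, at 72 hours. The deposited table gave linear intensity per probe set, made by the authors with RMA under R 2.15.1, per the submitters' processing notes. The chip annotation and whether all arrays were normalised together are not given in the sources used here. Values were put on log2 with no offset. Of 32321 probe sets 19158 had 1 gene symbol, 1388 had several and 11775 were not listed in the platform's annotation. The highest-mean probe set stood for each of 18404 genes, 637 of which had more than 1.

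limma 3.58.1 in R 4.3.3 fitted 4 group means to all 12 arrays (8 residual and 4.17 prior degrees of freedom), with two-sided tests adjusted by Benjamini and Hochberg over 18404 genes and a threshold of 0.05. The script was tested on simulated data. No filter on dim probe sets was used, and precision is limited by how many arrays there were. Groups came from the sample descriptions. Per-array values are given by a rule: the 5 largest rises and falls past the threshold in each contrast and the 2 largest changes of each role and line, with up to 2 genes per direction and line of each other list. The members and lists were chosen with earlier results of these data known. Alternatives covered scaling, p adjustment over all probe sets with 1 symbol, dim genes, variance prior, each line fitted alone, replicate block, left-out arrays and threshold. The probe set that stood for a gene was not varied in these fits. For the lists these alternatives were applied after the values were seen.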

Additional observations from a re-analysis of the deposited data

Results flagged for a closer look

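The effect of TP63 knockdown differed between the lines in 33 of the 62 genes by a test of the difference itself, the interaction of line and shRNA in limma at an adjusted p under 0.05 over all genes. Values are the FaDU effect minus the JHU-029 effect on the log2 scale, and a negative value means a lower effect in FaDU. Among small subunit genes the differences were BYSL (-0.62), NOL6 (-0.61), UTP11 (-0.61), RRP12 (-0.50), NOL12 (-0.46), UTP25 (-0.45), UTP14A (-0.44), RRP7A (-0.39), UTP20 (-0.38), UTP15 (-0.35), UTP4 (-0.35), NOL7 (-0.28) and NOL11 (-0.26). The snoRNP genes concerned were DKC1 (-0.58), NOP58 (-0.41) and RRP9 (-0.33). For 60S factors they were NOP16 (-0.63), WDR12 (-0.63), NOL8 (-0.57), NOC3L (-0.55), NOP2 (-0.47), NIP7 (-0.40), NOC2L (-0.36), RRP1B (-0.33) and BOP1 (-0.29). Exosome subunits that differed were EXOSC2 (-0.50), EXOSC1 (-0.36) and EXOSC5 (-0.25). The multifunctional nucleolar genes were LYAR (-0.62), MYBBP1A (-0.51) and NCL (-0.24). Finally, 2 further genes differed, RRP7BP (-0.36) and NOL3 (-0.34). Of the 33 differences, 23 kept the call in each of 12 fits that left out 1 array. The 10 that lost it in at least 1 such fit were BOP1, EXOSC1, EXOSC5, NCL, NOL11, NOL3, NOL7, UTP15, UTP20 and UTP4. NOC2L, RRP1B and RRP9 kept the call in all these fits but lost it with the replicate number as a fixed block. RRP12 kept it in these fits and with the block, but lost it without both FaDU shControl arrays titled new. Over every alternative except the stricter threshold of 0.01, 19 of the 33 kept the call. Groups of 3 arrays are too small for a check of single outlying arrays. Knockdown depth in each line is not analysed here, and its part in these 33 differences was not tested.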

How the results depend on the processing

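No member's call changed sign under any alternative. Of 48 falls in FaDU, 40 held in each of 12 fits without 1 array and 36 also under every other setting except the stricter threshold of 0.01. EXOSC7, NOL11 and RRP1B held in those 12 fits but were lost without both FaDU shControl arrays titled new. GNL2 was lost when each line was fitted alone. Leaving out 1 array gave 42 to 49 falls in FaDU, 0 to 1 rises there, 0 to 1 falls in JHU-029, a median in JHU-029 of -0.0133 to -0.000895 and 24 to 36 differences between the lines. The rise in FaDU was NOL4L, without FaDU shControl replicate 3; with only genes above the median intensity it was NOP53, 1 in all. The single fall in JHU-029, BYSL, became 0 under median centring, the fixed or random replicate block and the 0.01 threshold. Differences between the lines numbered 18 at 0.01. The median of FaDU shControl minus JHU-029 shControl was 0.13 under median centring and 0.24 with genes above the median intensity. Deviations of same-numbered arrays from their group means correlated at -0.0811, -0.067 and 0.0134 in FaDU. In JHU-029 these correlations were -0.339, -0.0104 and -0.199. Differently numbered arrays gave -0.0521 to 0.112 in FaDU and -0.133 to 0.294 in JHU-029. With 3 arrays per group these values cannot decide whether the numbers pair samples. With the fixed replicate block 42 genes fell in FaDU, 0 in JHU-029 and 21 differed between the lines. When each line was fitted alone, without the spread of the other line's arrays, 39 genes fell in FaDU and 1 in JHU-029. The cause of these shifts was not tested.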
